A study of Equus caballus with 2 samples.

Results

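Most of the genome of a mammal carries methyl groups on the cytosines of CpG sites, and the stretches that lack them stand out. CpG islands, which lie over many gene starts, are dense in CpGs and usually unmethylated. Enhancers far from gene starts are often CpG-poor and of low methylation, since bound transcription factors and active demethylation keep methyl groups away, and their low regions differ between cell types. The regions described here are 1 kb tiles of the horse genome that held few listed CpGs, lay away from CpG-dense tiles and had little methylation in skin. They are candidates for such distal elements by their methylation alone, since no histone mark, accessibility or expression enters the data used here.

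Tiles were chosen from 2 libraries of reduced representation bisulfite sequencing (RRBS), a method that reads short fragments cut at CCGG sites. One library came from an equine sarcoid, a fibroblastic skin tumour associated with bovine papillomavirus, and the other from tumour-distant skin of the same animal, horse 1. There was 1 library per tissue, with tissue pieces of mixed cells in each, and no agent or allele was given for either. Neither cell types nor a genome build were named in the sources used here, so coordinates are those of the deposited files and no gene is named. The skin library held 48650606 reads over cytosines and the sarcoid library 35970547, with a median of 41 and 31 reads at the 877053 CpGs that had at least 10 reads in both libraries.

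A tile was a member if it listed 10 or fewer CpGs in either library, had at least 3 CpGs with at least 10 reads in both, and had a level in skin of at most 20%. The level is the share of reads showing a methylated cytosine over all covered CpGs of the tile. No tile with over 20 listed CpGs, called dense below, was allowed within 2 tiles on either side. Of 103512 tiles with enough coverage, 68215 were CpG-poor and away from dense tiles, and 7999 of these (11.7%) were members, termed low tiles below. They held 45342 covered CpGs. Median depth was 43.4 reads per covered CpG in skin and 35.5 in sarcoid, and reads summed over a tile had medians of 220 and 183. The level in skin chose the tiles, so it is a description. The difference between sarcoid and skin contains that level, so it too is a description. Calls from a test fitted over all tiles serve below only to mark tiles, and support nothing about the low tiles as a set.

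The lowest of the low tiles formed a peak near 0, while the others ran on into the tiles above the limit. Among the 68215 CpG-poor tiles, 4832 lay below 5% in skin, while each of the next 3 bins of 5 points held between 984 and 1111. The bin just above the limit, from 20% to 25%, held 1284. The main mass of CpG-poor tiles lay far above, with the fullest bin (6646 tiles) between 75% and 80%. The sarcoid, whose level the choice did not use, had the same form, with 5254 tiles below 5% and 1212, 1286 and 1380 in the next bins.

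**Figure D1:**
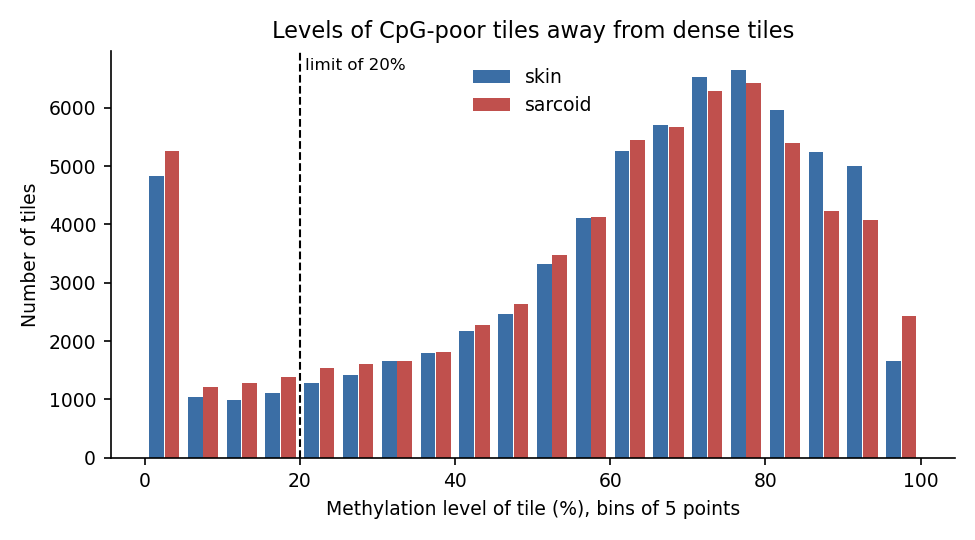
Number of CpG-poor tiles away from dense tiles (68215 in all) by methylation level, in bins of 5 points, in skin (blue) and sarcoid (red); the dashed line is the limit of 20% in skin. Both libraries show a peak of 4832 and 5254 tiles below 5%, a trough, and a broad mass at high levels.

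Within the low tiles the median skin level was 2.25% and the mean 5.62%. A level of at most 5% was seen in 4837 tiles, 1046 tiles lay above 5% and up to 10%, and 2116 above 10%. No methylated read was seen in skin in 1872 tiles. Single CpGs were mostly low too: in 6059 tiles (75.7%) every covered CpG was at most 20% in skin, and only 134 tiles held a CpG of at least 50%. The choice bounds the level of the tile, so these counts are largely set by it. CpGs of a tile are also often crossed by the same reads. Depth left the placing of some tiles uncertain, since the Wilson 95% interval of the skin level reached above 20% in 1403 of the 7999. These intervals cover counting error only, and they are too narrow because 1 read adds to the sum at every CpG it crosses and copies of a molecule were not removed by identifiers.

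Exactly at the limit lay 37 tiles, with 40 to 595 reads in skin and a median of 85. The first 3 by position were described. On chromosome 1, the tiles from 28680001 to 28681000 and from 125957001 to 125958000 each had a level of 20% over 60 reads in skin, with an interval from 11.8% to 31.8%, and 20.8% and 40% in sarcoid. The next, on chromosome 2 from 10154001 to 10155000, had 20% over 40 reads in skin and 50% over 74 in sarcoid. Just outside lay tiles of chromosome 14 from 47768001 to 47769000, at 20.05% in skin and 18.1% in sarcoid. Another, on chromosome 13 from 2711001 to 2712000, had 20.06% and 16.6%, and the next, on chromosome 15 from 59428001 to 59429000, had 20.08% and 20.2%.

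Most low tiles were also low in the sarcoid. Of the 7999, 7077 (88.5%) had a sarcoid level of at most 20%, 842 (10.5%) lay above 20% and up to 50%, and 80 (1.00%) above 50%. The median sarcoid level was 1.60% and the mean 7.06%, and 6097 tiles (76.2%) were within 5 points of skin. In 5369 tiles (67.1%) every covered CpG was at most 20% in both libraries. The difference, sarcoid minus skin, had a median of 0 points and a mean of 1.43 points over the low tiles, against -0.41 and -1.88 points over all 103512 tiles. The choice bounds the skin level from above and leaves the sarcoid level free, so the sign of the mean difference is partly set by the choice. In tissue pieces, a change in the share of cell types and a change of methylation within cells cannot be told apart.

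The share of low tiles that were also low in the sarcoid fell as the level in skin rose. The same limit of 20% was put on both libraries, so tiles nearer to it in skin cross it more easily. This fall is thus partly set by the choice. Of the 1872 tiles without a methylated read in skin, 1868 (99.8%) were at most 20% in the sarcoid, with a mean of 0.375%. Tiles above 0 and up to 1% had a sarcoid mean of 0.531%, and those above 1% and up to 5% had 3.15%. Higher up, the share at most 20% in the sarcoid was 89.2% for skin levels of 5% to 10%, 73.0% for 10% to 15% and 55.1% for 15% to 20%. The sarcoid mean of the last class was 21.8%, against a skin mean of 17.7%, while its medians were 18.8% in sarcoid and 17.8% in skin.

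**Figure D2:**
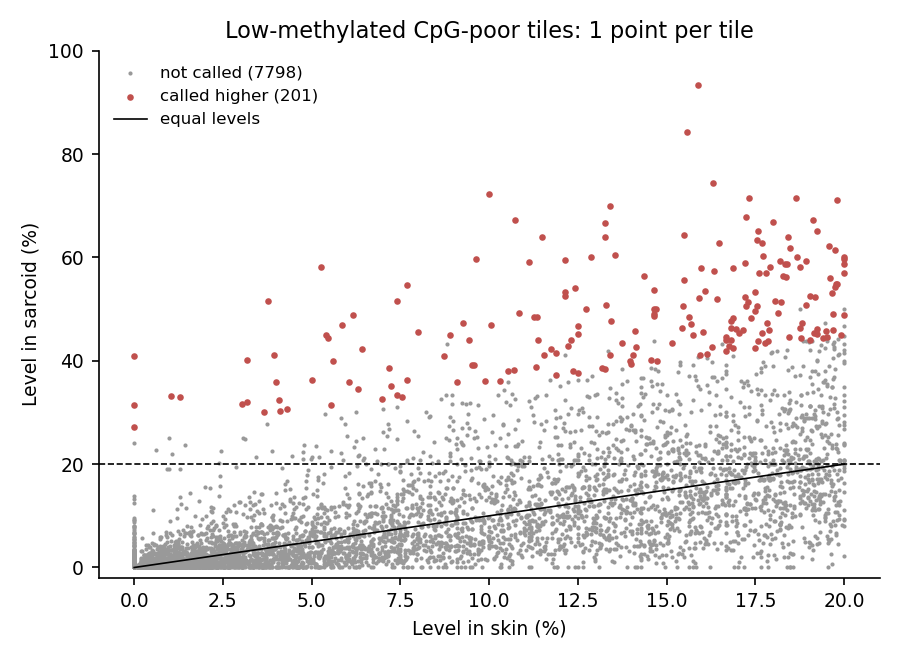
Level in sarcoid against level in skin for the 7999 low tiles, with 1 point per tile; red points are the 201 tiles called higher in the sarcoid, the solid line marks equal levels and the dashed line 20% in the sarcoid. Tiles near 0 in skin stay near 0 in the sarcoid, and the spread upward is wider toward the limit of 20%.

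Some low tiles had almost no methylated reads at high depth. Those described were the tiles of lowest sarcoid level with at least 200 reads per library, so their levels near 0 were part of their choice. On chromosome 2 from 12761001 to 12762000, 10 CpGs within 75 bp had 2 methylated of 1228 reads in skin (0.163%, interval 0.0447 to 0.592) and 0 of 1309 in the sarcoid, which allows a level of up to 0.229%. Here and below, the level that a count of 0 allows is 3 counts of the summed reads, somewhat under the Wilson upper limit, which was 0.293% for this tile. All 10 CpGs of that tile were covered on both strands. The tile on chromosome 6 from 81624001 to 81625000 had 0 of 1201 reads in skin and 0 of 948 in sarcoid over 8 CpGs, which allows up to 0.250% and 0.316%. For the chromosome 6 tile no methylation was detectable at this depth in either tissue.

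Further tiles of this kind had unequal depth in the libraries. On chromosome 5 from 19853001 to 19854000 no methylated read was seen in 276 reads of skin and 1027 of sarcoid, which allows up to 1.09% and 0.292%. On chromosome 29 from 22725001 to 22726000 there was none in 300 and 886 reads, which allows up to 1% and 0.339%. A tile of chromosome 28 from 29905001 to 29906000 had 1 of 338 in skin and 0 of 870 in sarcoid, which allows up to 0.345%. Chosen by its number of covered CpGs and reads, the tile of chromosome 10 from 26877001 to 26878000 had 5 of 1134 reads (0.441%) and 5 of 2743 (0.182%). In all, 1358 low tiles had no methylated read in either library, over 335473 reads of skin and 275988 of sarcoid.

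Also described were the 5 tiles with most covered CpGs, then most reads, among low tiles of at most 20% in both libraries. Their sarcoid level was thus bounded by the choice. Those of chromosomes 10 and 2 were near 0 and the other 3 were not. On chromosome 25 from 36703001 to 36704000, 10 CpGs had 18.1% (interval 16.2 to 20.3) over 1361 reads in skin and 17.95% (15.8 to 20.3) over 1114 in sarcoid, so the partial levels differed by less than counting error. A tile of chromosome 18 from 81276001 to 81277000 had 2.67% and 4.81%. On chromosome 11 from 50942001 to 50943000, the level was 2.02% (1.32 to 3.07) in skin and 10.02% (8.33 to 12.01) in sarcoid, and all 10 CpGs were higher in the sarcoid.

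CpGs of the low tiles lay in short stretches, as did those of other CpG-poor tiles, which bears on the term CpG-poor. The listed CpGs of a low tile spanned a median of 74 bp, about the length of a 75 bp read, against 75 bp in other CpG-poor tiles. In 86.1% of low tiles and 84.4% of the others no neighbouring CpGs were more than 75 bp apart. CpGs of the 1 kb outside the fragments read were not seen, so a low count of listed CpGs is not a count of all CpGs of the tile. The median distance between neighbouring listed CpGs was 11 bp in the tiles of at most 5% in skin, 16.5 bp in those of 5% to 10% and 19 bp in those of 10% to 20%. It was 18 bp in the 60216 other CpG-poor tiles and 7 bp in the 6599 dense tiles that were low in skin.

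The closer spacing of the lowest tiles was present at every number of listed CpGs. Among tiles listing 4 CpGs, the median distance was 16.5 bp at a skin level of at most 5% and 21 bp in other CpG-poor tiles. With 7 CpGs the values were 10 and 13.5 bp, and with 10 CpGs 8 and 15 bp. Spacing of the low tiles above 5% ran close to that of the other CpG-poor tiles, with 20 bp at 4 CpGs and 12 to 13 bp at 10. Of the CpG-poor tiles with a median distance up to 8 bp, 24.1% were low tiles, against 7.69% of those over 30 bp.

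**Figure D3:**
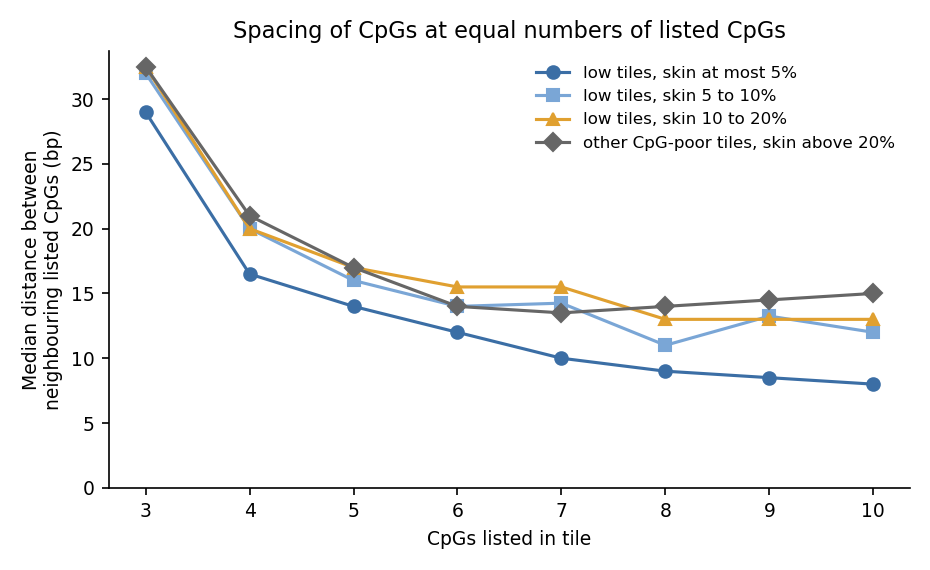
Median distance in bp between neighbouring listed CpGs by the number of CpGs listed in the tile (3 to 10), for low tiles in 3 classes of skin level and for other CpG-poor tiles. The line of tiles at most 5% lies lowest throughout, from 29 bp at 3 CpGs to 8 bp at 10, while the other lines run near each other.

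Some low tiles were pieces of larger groups of CpGs that a tile border divided. In 1582 low tiles (19.8%) the next listed CpG lay outside the tile within 75 bp of its CpGs, against 12.02% of other CpG-poor tiles. A window of 500 bp on either side of the tile's CpGs, chosen after the data were seen, listed more than 10 CpGs for 1521 low tiles (19.0%) and for 6.18% of other CpG-poor tiles. It listed more than 20 for 270 low tiles, of which 236 were at most 5% in skin. The 6478 low tiles with 10 or fewer CpGs in that window had a median of 3.08% in skin and 2.21% in sarcoid, and 87.2% of them were at most 20% in the sarcoid.

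The tiles most like the sparse, distal elements that the choice aimed at made up 31.1% of the low tiles. These 2491 tiles had a median distance between CpGs over 15 bp, 10 or fewer CpGs in the centred window and no dense tile within 10 kb, limits that were set after the data were seen. Their median level was 7.04% in skin and 5.52% in sarcoid, and 81.8% were at most 20% in the sarcoid. A skin level of at most 5% was seen in 1075 of them, of which 1061 were at most 20% in the sarcoid. Whether any is an enhancer was not tested.

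Low levels reached beyond the tile, and further around the lowest tiles. Flanks were read in CpG-poor tiles on both sides, other low tiles among them, a restriction chosen after the data were seen. Around tiles of at most 5% in skin, the mean CpG level was 15.5% at 1 kb, 37.6% at 2 kb and 48.4% at 3 kb, and it rose to 53.8% at 10 kb. Around tiles of 5% to 20% it was 39.1% at 1 kb, 48.6% at 2 kb and 54.9% at 10 kb. Other CpG-poor tiles had flanks of 63.2% at 1 kb and 60.3% at 10 kb. Flanks in the sarcoid followed those of skin, with 14.6%, 36.6% and 47.1% at 1, 2 and 3 kb around the lowest tiles. With flanking tiles of every density, the skin mean around the lowest tiles was 9.08% at 1 kb, 27.2% at 2 kb and 36.6% at 10 kb. Dense tiles were barred within 2 tiles by the choice.

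**Figure D4:**
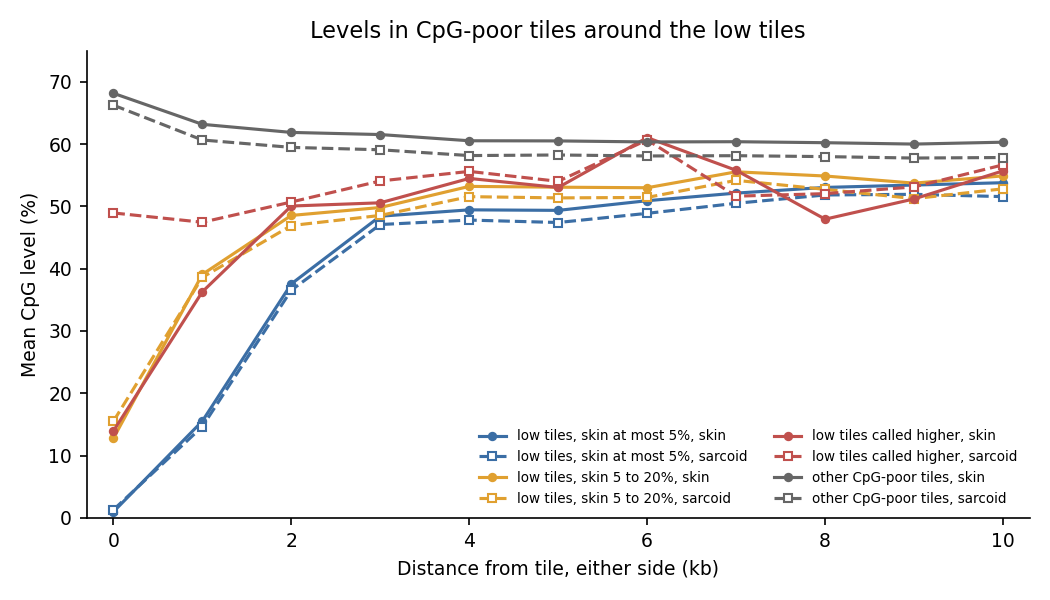
Mean CpG level in skin (solid lines) and sarcoid (dashed lines) in the tiles themselves (distance 0) and in CpG-poor tiles at 1 to 10 kb on either side, for low tiles by skin level, low tiles called higher, and other CpG-poor tiles. Low levels rise within about 3 kb toward 50%, and only the low tiles called higher show a wide gap between the libraries, at distances 0 and 1 kb.

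Low tiles often lay beside each other. Of the 2228 low tiles with an eligible CpG-poor tile directly beside them, 60.5% had another low tile there, against 7.34% of the 13733 other CpG-poor tiles with such a neighbour. When gaps of 1 tile were allowed, there were 6341 single tiles, 707 runs of 2, 68 of 3 and 10 of 4 tiles. Only 2228 of the 7999 low tiles had an eligible tile directly beside them. A single tile is thus not shown to be an isolated low region. Neighbouring tiles can share a fragment at their border, so these runs are not separate measurements.

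Of the 10 runs of 4 low tiles, the first 5 by position were described. On chromosome 11 from 20373001 to 20377000, skin levels ran from 0% to 5.08% and sarcoid levels from 0% to 1.03% over 27 CpGs. The run on chromosome 10 from 58032001 to 58037000 had 1.30% to 7.09% in skin and 0.664% to 1.46% in sarcoid. On chromosome 8 from 33756001 to 33761000, 174 kb from the nearest dense tile, levels ran from 0.287% to 9.25% and from 0.826% to 4.14%. In these 3 runs every low tile was at most 10% in both tissues. Of these, the runs on chromosomes 10 and 8 were 5 kb long and held a tile with too little coverage to test.

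Higher or less even levels were seen in the other runs. On chromosome 1 from 28770001 to 28774000, levels were 1.56% to 14.4% in skin and 0.952% to 6.81% in sarcoid, with a dense tile 3 kb away. A run of chromosome 10 from 14488001 to 14494000 had 8.70% to 19.1% in skin and 4.17% to 43.8% in sarcoid. No tile of the 5 runs was called higher (count 0).

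Distance to a dense tile separated the low tiles little from other CpG-poor tiles. The median distance was 51 kb for low tiles and 56 kb for other CpG-poor tiles, and 33.2% and 35.6% lay over 100 kb away. Low tiles made up 13.2% of the CpG-poor tiles at 3 to 10 kb from a dense tile and 10.5% of those over 200 kb away. The share at most 5% in skin was 7.13% and 6.88% in these classes, so the decline was found in the tiles of 5% to 20%, at 6.08% and 3.66%.

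Chromosomes differed in how many of their CpG-poor tiles were low. The share ran from 7.71% on chromosome 26 to 18.3% on chromosome 20, with a median of 11.1% over the 31 chromosomes, and chromosomes 10 and 5 followed chromosome 20 at 15.3% and 14.8%. In the sarcoid, the share of CpG-poor tiles at most 20% was also lowest on chromosome 26 (8.42%) and highest on chromosome 20 (18.3%). Along the chromosomes, cut into 5 parts of equal length, low tiles made up 15.4% of CpG-poor tiles in the middle part, 11.3% in the first and 9.18% in the last.

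Low levels in these tiles were seen on both strands. At 12709 CpGs of low tiles with at least 10 reads on each strand in both libraries, the mean was 4.63% on the plus and 4.62% on the minus strand in skin, and 5.30% and 5.42% in sarcoid. Strands lay at least 30 points apart at 1.29% of these CpGs in skin and 2.05% in sarcoid. By a wider count, a CpG with strands apart in either library, with at least 10 reads on each strand in that library, was found in 0.476% of the tiles at most 5% in skin. It was found in 17.3% of those of 10% to 20% and in 35.7% of other CpG-poor tiles. Among tiles with a CpG covered on both strands in both libraries, these shares were 0.710%, 30.1% and 60.4%. A gap of 30 points is hard to reach at levels near 0, so the order of these classes is partly set by the skin level that defined them. Whether these gaps exceed counting error at 10 or more reads per strand was not tested.

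Among the low tiles, 201 (2.51%) were called higher in the sarcoid, that is, at q below 0.01 in Fisher's exact test (two-sided) on the reads of the tile, with a rise of at least 25 points. Of all 103512 tiles, 2.28% were called higher and 4.10% lower. No low tile was called lower (count 0), since a fall of 25 points from at most 20% is impossible, though 665 were lower at an unadjusted p below 0.05. The test compares 2 libraries and uses the skin reads that chose the tiles, so the count is a description and nothing is read from it about the low tiles. When reads were divided by the number of covered CpGs within 75 bp, so that a read counted about once, 27 low tiles (0.338%) were called higher, against 0.360% of all tiles higher and 1.04% lower. With a difference of 15 points in place of 25, 393 low tiles were called higher, against 4.75% of all tiles higher and 8.51% lower. With 40 points there were 54, against 0.403% and 0.876%. With every CpG thinned to 10 reads there were 150 of 8439 low tiles, against 1.16% and 1.86% of all tiles. Single CpGs gave a like picture: of the 45342 covered CpGs, 511 (1.13%) were called higher and 34 lower, against 0.954% and 1.89% of all CpGs.

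The 201 tiles are described by their values, which the calls themselves selected. Their median was 15.5% in skin and 47.3% in sarcoid, 156 of them were above 10% in skin and 16 at most 5%. In 151 of the 201 every covered CpG was higher in the sarcoid, and in 144 at least 1 CpG was called singly. Median depth was 138 reads in skin and 117 in sarcoid, below the medians of all low tiles. CpGs with strands apart in either library were present in 66 of them (32.8%), against 5.03% of low tiles not called. The share was 17.3% in all low tiles of 10% to 20% in skin. It was 35.9% in other CpG-poor tiles above 20% and up to 50% in skin, whose sarcoid median was 40.3%. Among tiles with a CpG covered on both strands in both libraries, it was 54.2% in called tiles and 63.3% in those other tiles. A gap of 30 points is easier to reach at partial levels, so these shares depend on the level. Whether called tiles differ in this from tiles of like level was not tested. Only 48 of the 201 held a CpG covered on both strands in both libraries, so strands could not be compared in both libraries in the rest. Without the CpGs with strands apart, 164 of 7833 low tiles were called higher, and 169 of the 172 called tiles that kept enough CpGs were still called. For this setting the share of all tiles called was not counted. Flanks also differed at 1 kb, where 82 CpG-poor tiles had means of 36.3% in skin and 47.5% in sarcoid. At 2 kb, 58 tiles had 50.1% and 50.7%. These flanks are not separate from the calls. In 26 of the 201 tiles the next listed CpG lay outside the tile within 75 bp, where reads can be shared. Directly beside another called tile lay 6 of the 201, and called tiles were kept in the flanks.

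The 10 largest rises among tiles with at least 5 covered CpGs each involved all covered CpGs of the tile. The first, on chromosome 28 from 27797001 to 27798000, had 31 methylated of 190 reads in skin (16.3%, interval 11.7 to 22.2) and 87 of 117 in sarcoid (74.4%, 65.8 to 81.4). Its 5 CpGs, at 27797368, 27797404, 27797432, 27797441 and 27797443, were at 17.9%, 20.5%, 16.2%, 10.5% and 16.2% in skin. In the sarcoid they were at 70.8%, 58.3%, 83.3%, 79.2% and 81.0%, so the values of the tissues did not overlap. Each of these CpGs had 37 to 39 reads in skin and 21 to 24 in sarcoid, so far fewer molecules than summed reads stand behind the tile.

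On chromosome 22 from 39368001 to 39369000, 28 of 261 reads were methylated in skin (10.7%, interval 7.53 to 15.1) and 127 of 189 in sarcoid (67.2%, 60.2 to 73.5). Its 6 CpGs were between 0% and 25.9% in skin and between 55.2% and 76.9% in sarcoid. On chromosome 1 from 118318001 to 118319000, 8 CpGs with 14 reads each in skin went from 13.4% to 69.9%, with 1 CpG at 118318540 reaching only 23.5%. At 6 CpGs of chromosome 24, in the tile from 37406001 to 37407000, the level was 13.3% in skin and 66.7% in sarcoid. At 5 CpGs of chromosome 11, in the tile from 55188001 to 55189000, it was 17.2% and 67.9%. In another tile of chromosome 11, from 15353001 to 15354000, the level went from 19.1% to 67.3%, while its CpG at 15353628 stayed low, at 4.76% and 18.2%. Rises in these tiles were thus shared by neighbouring CpGs but not equal among them.

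The remaining tiles of the 10 had partial rises or strands apart. On chromosome 15 from 14295001 to 14296000, the level rose from 11.1% over 495 reads to 59.1% over 186 at 8 CpGs, which ranged from 30% to 88.9% in the sarcoid. The tile of chromosome 21 from 5548001 to 5549000 was at 15.5% in skin and 64.4% in sarcoid. Chromosome 17 held a tile from 80145001 to 80146000 at 19.8% and 71.2%, and another from 24827001 to 24828000 at 18% and 66.9%, with 10 reads per CpG in skin. These last 3 tiles held 2 or 3 CpGs with strands at least 30 points apart. With reads counted about once, 5 of the 10 tiles were still called, those of chromosomes 28, 22, 24, 21 and 15.

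**Figure D5:**
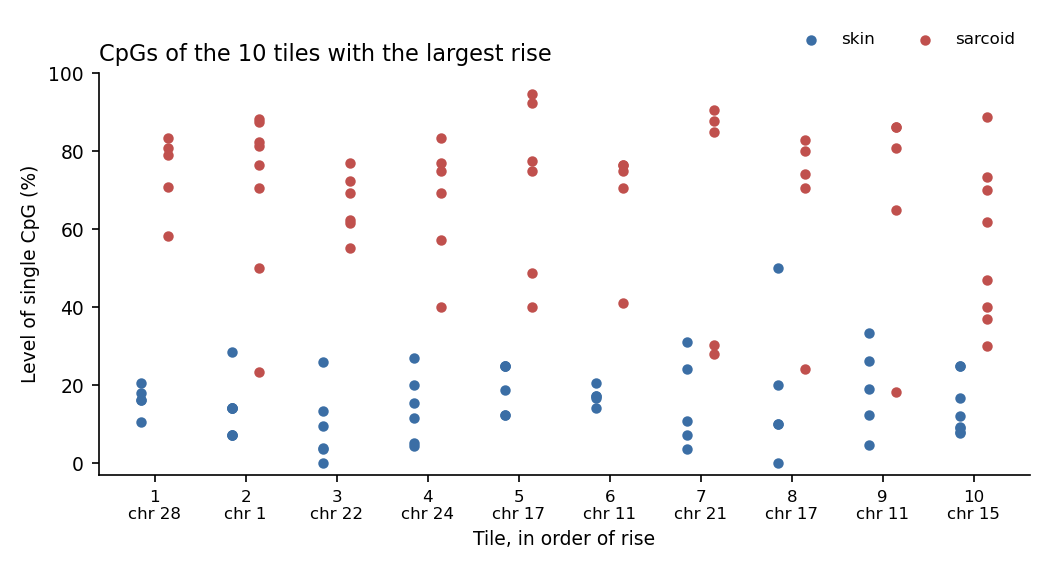
Level of each covered CpG in skin (blue) and sarcoid (red) in the 10 low tiles with at least 5 covered CpGs and the largest rise, ordered by the rise of the whole tile and labelled by chromosome. Sarcoid values lie mostly between 40% and 95% and skin values mostly below 30%, and the tiles on chromosomes 1, 21, 17 (the tile ranked 8), 11 (ranked 9) and 15 also hold CpGs near or below 30% in the sarcoid.

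Rises to nearly full methylation, and rises from 0, were few. Only 2 low tiles exceeded 80% in the sarcoid: chromosome 17 from 25271001 to 25272000, where 3 CpGs at 14.3% to 19.0% in skin were at 90% to 95%, and chromosome 6 from 64435001 to 64436000, where 4 CpGs at 12.5% to 20.8% were at 83.3% to 84.6%. Of the 1872 tiles with no methylated read in skin, 3 were called higher. The clearest was on chromosome 8 from 24414001 to 24415000, where 6 CpGs had 0 of 149 reads in skin, which allows up to 2.01%, and 98 of 240 in sarcoid (40.8%, interval 34.8 to 47.1). All 6 CpGs were between 32.4% and 47.4% in the sarcoid, and 5 had both strands covered with no strands apart. The others, on chromosome 15 from 59653001 to 59654000 with 31.4% and on chromosome 11 from 7748001 to 7749000 with 27.1%, had 36 and 42 reads in skin over 3 CpGs, which allows up to 8.33% and 7.14%. None of these 3 was called with reads counted about once. These 5 tiles were chosen after their values were seen.

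Choosing the tiles by the sarcoid instead gave a larger set. By the same rule on the sarcoid level, 9202 CpG-poor tiles were low, of which 7077 were the tiles low in both libraries, 76.9% of this set and 88.5% of the low tiles of skin. Low only in the sarcoid were 2125 tiles and low only in skin 922, a ratio of 2.30. Of the 9202 tiles, 795 (8.64%) were called lower in the sarcoid than in skin, against 4.10% of all tiles, while 201 were called higher among the low tiles of skin. With reads counted about once 208 of the 9202 were called lower, against 1.04% of all tiles. With every CpG thinned to 10 reads 496 tiles of the mirrored choice were, against 1.86% of all tiles. Each choice pulls its own library down, so neither count supports a difference, and no test was made between them. Depth differed between the libraries, and with every CpG thinned to 10 reads the ratio was 1.95.

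The mirrored sets differed between chromosomes of unlike depth. On chromosomes 5, 6, 7, 12, 18, 21, 22, 25, 28 and 29, where the sarcoid library was deeper relative to skin, 893 tiles were low only in the sarcoid and 238 only in skin, a ratio of 3.75. On the other 21 chromosomes the numbers were 1232 and 684, a ratio of 1.80. Of the mirrored tiles, 376 of 3116 (12.1%) were called lower on the first chromosomes and 419 of 6086 (6.88%) on the others. The share of low tiles called higher was 2.56% and 2.49%, and the sarcoid mean of low tiles was 6.60% and 7.26%. The share of all tiles called was not counted by these groups of chromosomes, so nothing is read from the called shares. What part depth had in these ratios was not tested.

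Dense tiles of low skin methylation, the classic form of an unmethylated island, were compared at equal skin level. At 5% to 10% in skin, the sarcoid mean was 9.43% in low tiles and 8.11% in dense tiles. At 10% to 15% it was 15.7% and 13.8%, and at 15% to 20% it was 21.8% and 17.5%, with 55.1% of low tiles and 71.6% of dense tiles at most 20% in the sarcoid. Below 1% the sarcoid means were at most 0.531% in both kinds. Dense tiles had a median of 24 covered CpGs, against 5, so their levels rest on more reads, and these values are given side by side without a test.

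The authors' deposited table, which covers chromosome 1, held 3398 CpGs of the 608 low tiles there. The difference in the authors' deposited table had the opposite sign to sarcoid minus skin at 99.8% of 59436 matched CpGs, so its sign was turned here. In the authors' deposited table, 33 of these (0.971%) passed a q-value below 0.01 and 25 points with the sarcoid higher, and 2 with the sarcoid lower. Of all 74187 CpGs in the authors' deposited table, 0.593% and 0.852% did so. The 35 CpGs lay in 23 low tiles, of which 13 were called higher here, from the same reads.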

How the data were processed

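Per the labels' protocols, RRBS libraries were made after an Illumina guide from tissue DNA and sequenced on 1 lane each with 75 bp single-end reads. Per the submitters' processing notes, BSMAP, FastQC and methylKit were used. Their settings and the genome build were not given in the sources used here. Per the file headers, each deposited file gives a read count (coverage) per cytosine and the percent of reads showing C and T. The authors' deposited table gives p-values, q-values and a difference score in points per CpG.

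Methylated reads were coverage times percent, rounded. Strands of a CpG were summed and no upper coverage limit was set. Tiles with at least 3 CpGs of at least 10 reads in both libraries entered Fisher's exact test (two-sided), with Benjamini-Hochberg adjustment over 103512 tiles. Calls needed q below 0.01 and 25 points, and differences are sarcoid minus skin. The script was tested on simulated data. The tools were matplotlib 3.10.9, numba 0.67.0, SciPy 1.17.1, pandas 2.3.3, NumPy 2.4.6 and Python 3.11.15.

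The low tiles, lists and classes were chosen with earlier results of these data known. Tiles named were the 10 largest rises with at least 5 covered CpGs, 5 with most covered CpGs, 5 of lowest sarcoid level with at least 200 reads per library, 3 on either side of the limit and 5 runs; others are said to be chosen after their values were seen. Gene names, sequences and motifs were planned but not used, since no genome of the files' build was at hand.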

Additional observations from a re-analysis of the deposited data

How the results depend on the processing

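There was 1 library per tissue, so no library could be left out, and the depth of a tile limits each call. No paired analysis was possible because each group had 1 sample, so no spread between pairs could be estimated. The number of low tiles stayed within 1.5 times of 7999 except with at least 5 covered CpGs (4982) and with 5 or fewer listed CpGs (3281). The count called higher, 201 of 7999, was 105 of 5661 at a minimum of 20 reads and 83 of 4982 with at least 5 covered CpGs. For these settings the share of all tiles called was not counted. It was 45 of 5883 and 606 of 10705 for skin limits of 10% and 30%, and 117 of 3281 with 5 or fewer listed. Such limits leave the tiles tested unchanged, with 2.28% of all tiles called higher. The count was 393 and 54 at differences of 15 and 40 points (4.75% and 0.403% of all tiles). With reads divided by CpGs within 75 bp it was 27 (0.360% of all tiles). At 10 reads per CpG it was 150 (1.16% of all tiles), and 85 of the 201 were still called. The share of low tiles at most 20% in the sarcoid, 88.5%, was 86.8% and 90.3% at minimums of 5 and 20 reads, 97.5% and 73.8% for skin limits of 10% and 30%, 92.1% with at least 5 covered CpGs and 83.6% with 5 or fewer listed. It was 90.0% without CpGs with strands apart, 85.6% at 10 reads per CpG, 87.6% without the chromosomes of deeper sarcoid coverage and 87.2% with 10 or fewer CpGs within 500 bp, a setting chosen after seeing the data. In the same order, the mean sarcoid level, 7.06%, was 7.76%, 6.38%, 2.77%, 13.2%, 5.40%, 9.28%, 6.55%, 8.58%, 7.26% and 7.77%. It was 6.87% with no dense tile within 10 tiles and 7.10% with tiles shifted by 500 bp. For each value past its interval the cause was not tested, apart from settings that change the tiles chosen. The ratio of tiles low only in the sarcoid to tiles low only in skin, a result added after seeing the data, ran from 1.80 to 2.44 over these settings. At 10 reads per CpG the tiles of chromosome 15 from 59653001 and chromosome 11 from 7748001 were no longer called, at differences of 30 and 33.3 points.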
